A study of Mus musculus with 6 samples.

Results

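The mitochondrial ribosomal proteins, encoded in the nucleus by the Mrpl and Mrps genes, were followed across 6 arrays of mouse liver. A gene belonged to the group when its symbol in the array annotation was Mrpl or Mrps with a number and at most 1 letter, and when its brightest probe exceeded an intensity of 129 on at least 1 array, the level used here to call a probe detected. Of 76 such symbols with a named probe, 73 were detected, out of 10039 detected genes in all. Mrpl32, Mrpl57 and Mrps14 were not detected on any array, and Mrpl41 and Mrps36 had no named probe. By subunit, 48 of the 73 belong to the large and 25 to the small subunit, with Mrps30 and Mrps18a counted in the large subunit, where their proteins sit despite the symbols. Signal was above the detection level on all 6 arrays for 67 members.

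The study asked how Xbp1s, the spliced and active form of a transcription factor of the unfolded protein response, alters gene expression in liver. All samples were pools of liver RNA from FVB mice aged 10 weeks, with 1 array for each of 6 groups, and no source used here says how many animals a pool held. One LIXs pool and one wild-type (WT) pool came from mice given doxycycline (Dox) chow for 24 h, and another LIXs and another WT pool from mice given it for 48 h, all after 6 h without food. LIXs mice carry an inducible TRE-Xbp1s transgene, for which the labels name no driver of the Dox-responsive activator and no line. The last 2 pools were WT mice fasted for 24 h and WT mice refed for 2 h, and Dox is given in the labels of neither. In bulk liver RNA, fewer cells of a type and less RNA per cell cannot be told apart.

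The mitochondrial ribosome makes the few oxidative phosphorylation subunits that mitochondrial DNA encodes. Its RNAs come from mitochondrial DNA, but all its proteins are made in the cytosol and imported. Some of them descend from bacterial ribosomal proteins, and others exist only in mitochondrial ribosomes. Hepatocytes are rich in mitochondria, and in mammals the promoters of nuclear genes for mitochondrial proteins often hold sites of the factors NRF1, GABP (an ETS family factor) and YY1.

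Several features of the arrays bear on every value below. Xbp1 itself read 4537 on the LIXs and 4259 on the WT array at 24 h, and 4350 and 5210 at 48 h, from a probe that is not known here to report the transgene. Of 7 well known Xbp1s targets, all 7 had lower signal in the LIXs array of each time point, and Dnajc3 and Syvn1 passed the test described below, at -1.32 ± 0.22 and -1.21 ± 0.25 (log2, SE, 2 arrays per genotype). These targets go against the genotype labels, so the sign of each LIXs minus WT difference holds only for the arrays as labelled. The LIXs array at 24 h also carried RNA of pancreatic acinar cells, with a summed intensity of 15879 over 14 measured marker genes, against 2498 to 3749 on the other 5 arrays. All 14 markers were detected on it and 13 on the WT array at 24 h. Their part in the 24 h differences was not tested, and the 48 h values are given beside them. Of 8 hepatocyte markers, 7 were detected on all 6 arrays. Their summed intensity was 87437 on the fasted array and 114968 to 136200 on the others.

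The fasted array stood apart from the rest. Among 1483 genes with a second probe detected on all 6 arrays, both probes gave the same sign of the LIXs minus WT difference for 80.8% at 24 h and 76.1% at 48 h, but of refed minus fasted for only 55.9%. For the 16 members with such a second probe the refed minus fasted signs matched in 9, whereas the sign of refed minus the WT array at 24 h of Dox matched in 14. The refed results are therefore given also against the mean of both WT Dox arrays, a reference added after the data were seen. Those mice differed from the refed mice in feeding, and the label of the refed pool gives no Dox.

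As a group, the members differed little between the genotypes as labelled. Differences were taken on the log2 scale after background correction and averaged over both times, with the error from a limma fit to the 4 Dox arrays that covered 7652 genes, 70 of them members. The median difference was 0.00 for the members and 0.01 for all genes, with 35 members above and 35 below 0. The middle 50% of members spanned 0.43, against 0.61 for all genes, 0.21 for 51 cytosolic ribosomal protein genes and 0.31 for 67 oxidative phosphorylation subunit genes. Those groups had medians of -0.10 and 0.07. Mrps12 was the 1 member of 70 past the adjusted p of 0.05 (Benjamini-Hochberg over all 7652 genes), and it was lower on the arrays labelled LIXs. Of all genes 8.8% passed, and 4.47% of all genes passed with lower signal in LIXs. At an unadjusted p under 0.05, 8 members were higher and 6 lower, 20.0% of the members, against 29.2% of all genes.

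The heat map shows each of the 67 members detected on all arrays. Both LIXs arrays lay below both WT arrays for 22 of 70 members and above both for 20, where 26.9% and 29.1% of all genes did so. Arrays without overlap between the genotypes were thus about as frequent among the members as among all genes, and went both ways. The sign was the same at both times for 55 members, 30 of them lower and 25 higher. That is 78.6% of the members, against 70.1% of all genes.

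**Figure D1:**
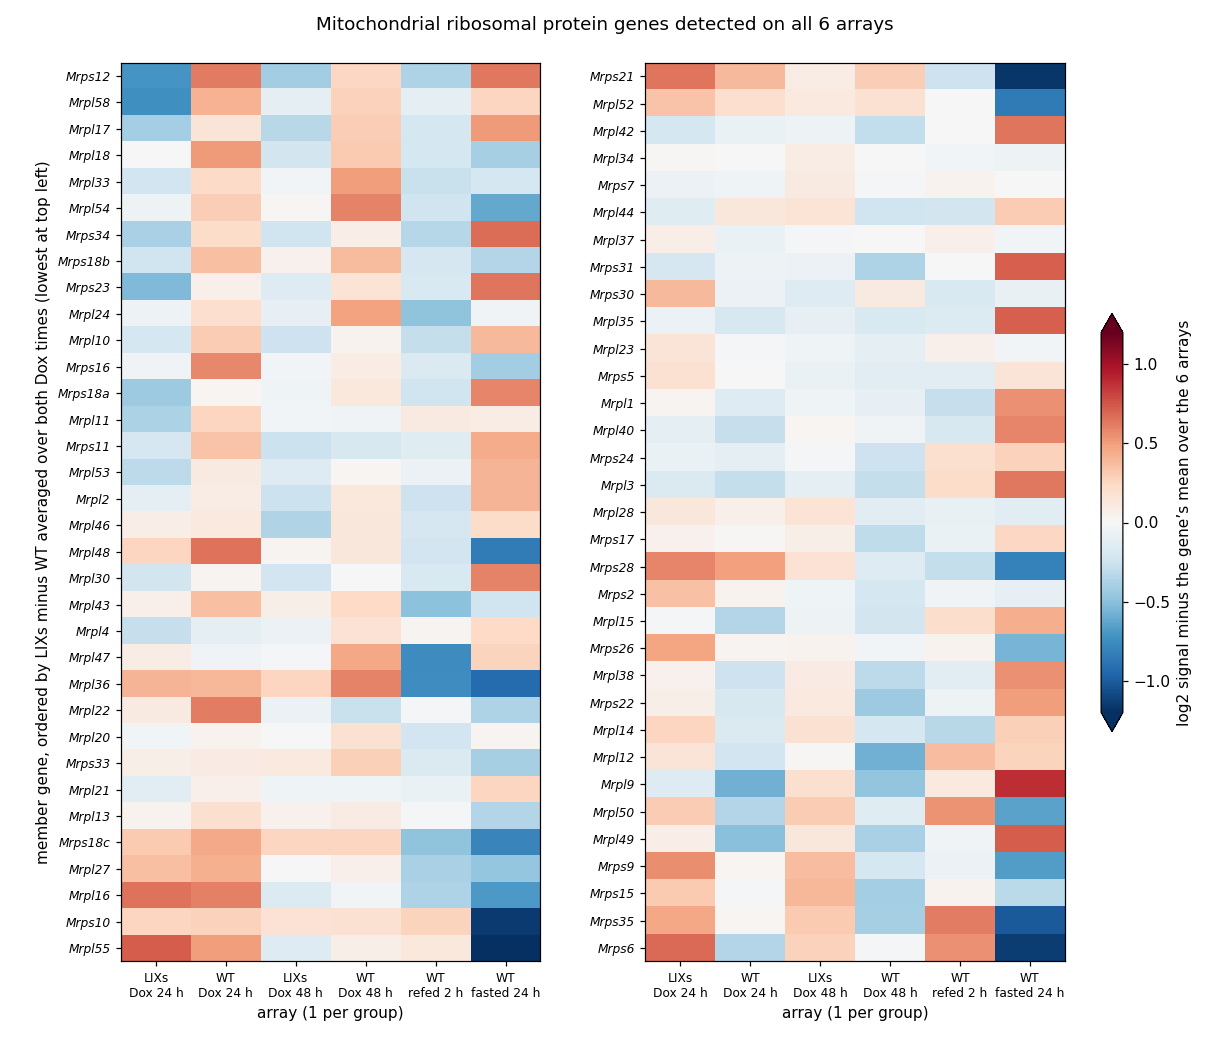
Log2 signal of each of 67 members detected on all 6 arrays, minus that gene's mean over the arrays, with 1 column per array and genes ordered by the averaged LIXs minus WT difference. Red is above and blue below the gene's mean. Mrps12 stands first at -1.0 and Mrps6 last at 0.67, and the fasted column holds the highest value of 28 members and the lowest of 23, as it does for 33.4% and 26.8% of all genes.

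The members were also grouped by lists of bacterial-type and mitochondrion-specific proteins. Mrps18a and Mrps18b were listed as mitochondrion-specific, although they are paralogs of Mrps18c, which was listed as bacterial-type. The averaged median was -0.10 for 27 bacterial-type large subunit genes, -0.07 for 18 mitochondrion-specific large subunit genes, 0.11 for 15 bacterial-type small subunit genes and -0.05 for 10 mitochondrion-specific small subunit genes. No test between the classes was made. The SE of a single member's difference ran from 0.21 to 0.24. It comes mostly from the prior of the fit, since the 4 arrays leave 1 residual degree of freedom. With 1 array per group, that degree of freedom holds how far the differences at 24 h and 48 h disagree. The SE is therefore not the scatter of replicate arrays, nor that of single animals.

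Mrps12 encodes the small subunit protein uS12m, part of the decoding centre, where codon and tRNA are matched. It read 1294 and 1560 on the LIXs arrays at 24 h and 48 h, and 3122 and 2420 on the WT arrays. It read 1608 on the refed and 3127 on the fasted array. Both LIXs arrays and the refed array were thus low, without overlap with the other 3. The LIXs minus WT difference was -1.33 at 24 h and -0.67 at 48 h, on average -1.0 ± 0.23 (SE, 2 arrays per genotype, limma adjusted p = 0.0339). A second Mrps12 probe, also detected on all 6 arrays, read 1436 and 1396 on the LIXs arrays against 2181 and 1766 on the WT arrays, with an averaged difference of -0.50. On that probe the fasted array was the lowest, at 488, and the refed array read 895, so the refed minus fasted difference was 1.02 on it and -1.0 on the brighter probe. The call rests on the processing. The limma adjusted p was 2.08e-05 without background correction, 5.85e-05 with an offset of 50, 0.0196 with detection on all 4 Dox arrays and 0.000129 with a trended and robust prior. It was 0.0531 with the mean of both probes, 0.145 without a filter on dim genes and 0.104 without time as a block. Fits of 3 arrays also drop the time block and leave 1 array in 1 genotype, assumed to vary like the others. Mrps12 was lower in LIXs in each of them. The call was lost without the LIXs array at 24 h, the WT array at 24 h or the LIXs array at 48 h. It was kept without the WT array at 48 h.

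Mrps12 lies head to head with Sars2, which encodes the mitochondrial seryl-tRNA synthetase that charges tRNAs for the same ribosome. The RefSeq starts of both genes are 147 bases apart on chromosome 7. Sars2 fell as well, by 0.90 ± 0.22 (adjusted p = 0.0353), with -1.06 at 24 h and -0.74 at 48 h. Its probe was dim, at 133 and 133 on the LIXs arrays, 177 and 160 on the WT arrays, 129 on the refed array, where it missed the detection level, and 176 on the fasted array. The order of the arrays was the one seen with the brighter Mrps12 probe in that both LIXs arrays and the refed array were the lowest 3. The stretch between both starts and the first 30 bases of Mrps12 is shown because it is the promoter region that the 2 genes share. It lies at chr7:28741792-28741967 of GRCm38.p6 and is written along the minus strand, on which Mrps12 is transcribed. Capitals mark CCGGAAG, the core that ETS family factors such as GABP bind, which begins at base 2 of the Mrps12 transcript.
Mrps12: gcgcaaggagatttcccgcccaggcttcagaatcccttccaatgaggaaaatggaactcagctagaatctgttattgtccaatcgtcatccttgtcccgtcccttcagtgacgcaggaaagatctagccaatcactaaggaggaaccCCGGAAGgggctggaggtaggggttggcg

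**Figure D2:**
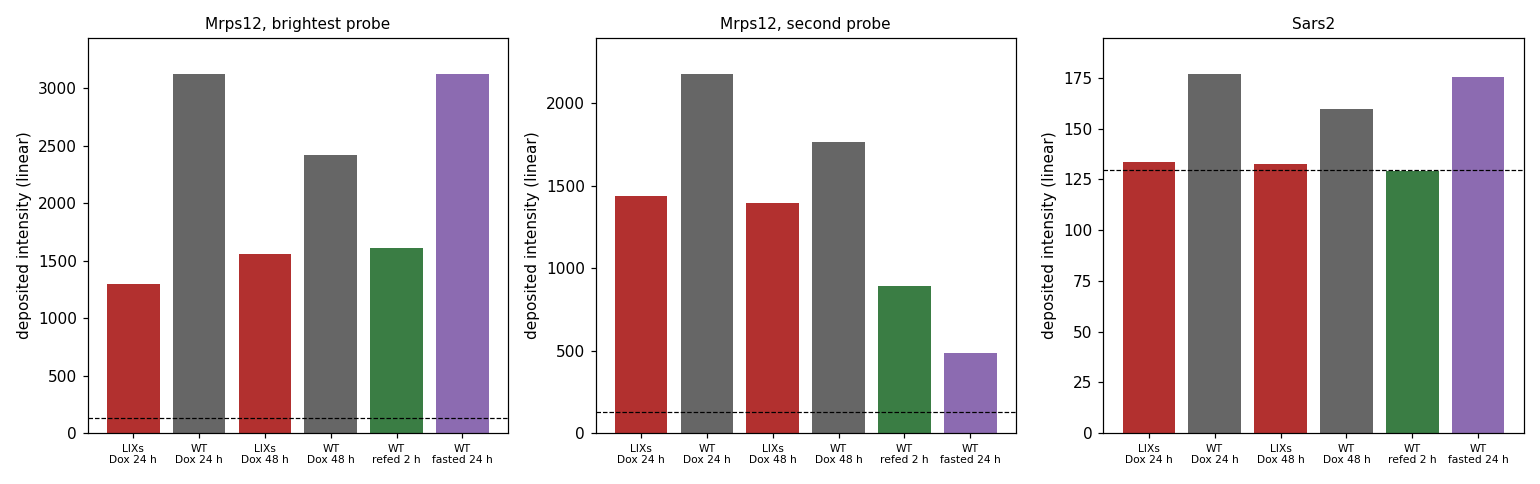
Deposited linear intensity of both Mrps12 probes and of the Sars2 probe on each of the 6 arrays, 1 bar per array with no error since each group has 1 array. The dashed line is the detection level of 129. Both LIXs bars lie below both WT Dox bars in each panel, while the fasted bar is the highest for the brightest Mrps12 probe, at 3127, and the lowest for the second, at 488.

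Such head-to-head neighbours were common among the members. Of 64 members with a RefSeq promoter window, 21 had another protein-coding gene starting on the opposite strand within 1000 bases upstream (32.8%), against 8.48% of 17492 protein-coding genes and 12.4% of detected ones. Among 13 of 21 listed pairs with both genes in the fit, 9 had averaged differences of the same sign. The same count was not made for head-to-head pairs over all genes, so no excess among the members can be read from it. Of these neighbours 2 passed the test, where 8.8% of all genes did. The neighbours past the test were Sars2 and Tmem63b, which encodes a mechanically gated ion channel and rose by 0.79 ± 0.21 (adjusted p = 0.0436) beside Mrpl14 at 0.41 (adjusted p = 0.220). Mrpl46 and Mrps11 are each other's neighbours, 42 bases apart, with averaged differences of -0.27 and -0.31. Their times differed: Mrpl46 was at -0.04 at 24 h and -0.50 at 48 h, and Mrps11 at -0.55 and -0.06. A second Mrps11 probe, detected on all 6 arrays, averaged 0.01. Since the pair of Mrpl46 and Mrps11 is entered once from each side, it counts for 2 of the 13.

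Among large subunit members, Mrpl58 had the largest negative difference. Its protein, also called ICT1, is a peptidyl-tRNA hydrolase built into the ribosome that frees stalled chains. Intensities were 284 and 388 on the LIXs arrays at 24 h and 48 h, against 518 and 480 on the WT arrays, with 388 refed and 473 fasted. The groups did not overlap, but the gap at 24 h, -1.16, was wider than at 48 h, -0.39, and the average of -0.77 ± 0.24 did not pass (adjusted p = 0.0681). Mrpl17, a bacterial-type protein of the large subunit, was more even between times. It read 3376 and 3547 on the LIXs arrays against 4936 and 5430 on the WT arrays, with 3850 refed and 6321 fasted. Its differences were -0.56 and -0.63, on average -0.59 ± 0.21 (adjusted p = 0.0970).

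The other members with the largest negative averages were Mrpl18 at -0.53, Mrps27 at -0.51, Mrpl33 at -0.50, and Mrpl54 and Mrps34 at -0.47 each, with adjusted p-values from 0.130 to 0.180. A second Mrpl33 probe, detected on all 6 arrays, averaged -0.27, with -0.42 at 24 h and -0.11 at 48 h. Mrpl18 encodes the relative of the bacterial protein that binds 5S rRNA. Mrps34, a mitochondrion-specific protein whose human gene is mutated in a form of Leigh syndrome, read 2543 and 2821 on the LIXs arrays and 3844 and 3492 on the WT arrays. Mrps27, an RNA-binding pentatricopeptide repeat protein, was close to background, with intensities from 115 to 167. Leaving out 1 array, and with it the time block, moved its difference between -0.88 and -0.14.

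Higher on the arrays labelled LIXs were, in this order, Mrps6, Mrps35, Mrps15, Mrps9, Mrpl49, Mrpl50, Mrpl9 and Mrpl12, none of which passed the test. Mrps6 read 337 and 277 on the LIXs arrays against 212 and 243 on the WT arrays, with 315 refed and 162 fasted. Its differences were 1.03 at 24 h and 0.30 at 48 h, on average 0.67 ± 0.24 (adjusted p = 0.101). Mrps35 was 0.58 higher on average, Mrps15 0.57 and Mrps9 0.56, the last with nearly equal values of 0.53 and 0.59 at both times. The 3 large subunit genes Mrpl49, Mrpl50 and Mrpl9 were each 0.55 higher. A second Mrpl9 probe also averaged 0.56, but from 0.18 at 24 h and 0.94 at 48 h, where the brighter probe gave 0.43 and 0.67. Of 31 other member probes detected on at least 2 Dox arrays, 23 had an average of the same sign as the brightest probe.

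Mrpl12 encodes the stalk protein that brings translation factors to the ribosome and, in human cells, also binds the mitochondrial RNA polymerase. It read 2382 and 2181 on the LIXs arrays against 1848 and 1480 on the WT arrays, with 2763 refed and 2570 fasted. The averaged difference was 0.49 ± 0.21 (adjusted p = 0.159). Of its partners at the base of the stalk, Mrpl10 was at -0.40 ± 0.21 (adjusted p = 0.239), with -0.52 at 24 h and -0.29 at 48 h. Mrpl11 was at -0.32 ± 0.23 (adjusted p = 0.402), but this came from the 24 h pair, at -0.64, with 0.01 at 48 h. The other members named whatever their values lay nearer 0 or between. Mrps18b, at -0.46, Mrps16, at -0.37, and Mrps18a, at -0.32, were below 0, as was Mrps18c, at -0.07. At 48 h alone Mrps18b was at -0.33, Mrps16 at -0.13 and Mrps18a at -0.18. Leaving out 1 array moved Mrps16 between -0.61 and -0.13 and Mrps18a between -0.51 and -0.13. The 3 Mrps18 genes are paralogs, of which Mrps18a encodes the large subunit copy. Mrps22 was at 0.41, Mrpl3 at 0.15, Mrps5 at 0.11 and Mrps7 at 0.05. Mrpl3 belongs to the core around the peptidyl transferase centre, and Mrps7 to the head of the small subunit.

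Among the members, the steadiest across all 6 arrays was Mrpl34, whose range was 0.14 on the log2 scale, followed by Mrpl37 at 0.16 and Mrps7 at 0.18. The widest were Mrpl55 at 2.01, Mrps6 at 1.82 and Mrps21 at 1.81. Each of these read lowest on the fasted array, at 149, 162 and 361, the array on which probes of a gene often disagreed. Over 67 members the median range was 0.91, against 1.01 for 5791 genes detected on all arrays. These genes were chosen after their values were seen.

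At 24 h alone, 2 members were at least 1.5-fold higher and 7 lower on the array labelled LIXs, of 69 detected on both arrays, a share of 13.0%. Over all genes the share was 27.3%, made of 13.0% higher and 14.3% lower. At 48 h, 5 of 68 members were higher and 2 lower, 10.3%, where 20.6% of all genes were past that fold, 10.5% higher and 10.1% lower. Single arrays carry no test. The member medians were -0.02 at both times. Across the 67 members detected on all arrays, the differences at both times had a Pearson r of 0.65, and across 5791 genes of 0.63. This is a description across genes, each time with its own pair of pools.

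**Figure D3:**
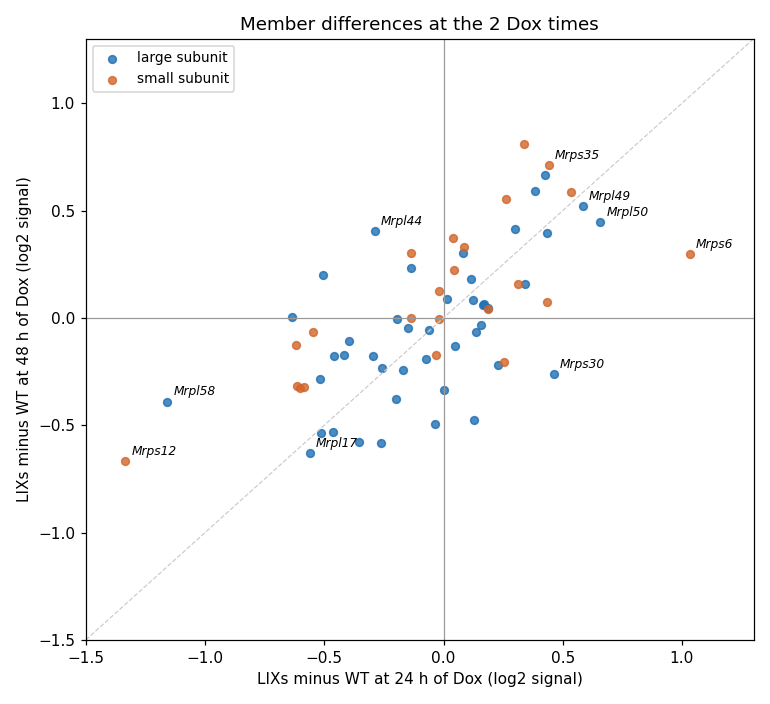
LIXs minus WT difference in log2 signal at 48 h against that at 24 h, 1 point per member detected on the 4 Dox arrays, coloured by subunit, with the dashed line marking equal differences. Mrps12 lies at -1.33 and -0.67 and Mrps6 at 1.03 and 0.30, both larger at 24 h, while Mrpl17 and Mrps9 lie near the line.

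Time on Dox left no member past the test. In the same fit 0 of 70 members and 0.0% of all genes differed between 48 h and 24 h by the limma test, although 6 members and 769 genes had an unadjusted p under 0.05. Between the WT arrays alone, 1 of 69 members was at least 1.5-fold higher at 48 h and 4 were lower, 7.25%, against 14.6% of all genes (7.96% higher and 6.62% lower). The exceptions were Mrpl51, higher by 0.69, and Mrpl22, Mrps27, Mrps28 and Mrpl16, lower by 0.89, 0.74, 0.65 and 0.64. In this pair of WT arrays small subunit genes were mostly lower at 48 h, 19 of 24, with a median of -0.22. Large subunit genes were even, 22 above and 23 below 0, and of all genes 3574 of 6947 were below 0. The member median between the WT arrays was -0.09 and that of all genes -0.01. Between the LIXs arrays small subunit genes went both ways, as with Mrps12 at 0.29 and Mrps28 at -0.41. A time effect on either subunit was not tested.

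In refed liver the members were on the low side of the WT Dox arrays. Against the mean of those arrays, 5 of 68 members were at least 1.5-fold higher and 13 lower, 26.5%, where 30.1% of all genes were past that fold, 15.6% higher and 14.5% lower. The median was -0.15 for the members, -0.30 for cytosolic ribosomal protein genes, -0.13 for oxidative phosphorylation genes and 0.01 for all genes. Refed signal was below both WT Dox arrays for 36 members and above both for 19, which is 52.9% and 27.9% of them, against 38.5% and 40.3% of all genes. Among 45 large subunit genes 32 were below 0, and among 23 small subunit genes 11.

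The most negative of these refed differences was that of Mrpl36, which encodes the relative of a very small bacterial large subunit protein. It read 574 in refed liver against 1157 and 1311 on the WT Dox arrays, and 518 on the fasted array, a difference of -1.24 from the WT Dox mean. Mrpl47 followed at -0.97, Mrps18c at -0.84, Mrpl24 at -0.83 and Mrps12 at -0.81. Higher were Mrps35 by 0.80, Mrpl50 by 0.79, Mrpl12 by 0.77, Mrps6 by 0.73 and Mrpl9 by 0.64. These comparisons and the LIXs minus WT differences share the WT Dox arrays.

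Against the fasted array, 10 of 68 members were at least 1.5-fold higher in refed liver and 20 lower, 44.1%, and so were 38.8% of all genes, 17.2% higher and 21.5% lower. The member median was -0.15 and that of all genes -0.09. With the mean of each gene's detected probes in place of the brightest, the member median turned to 0.01 and 20 members were past 1.5-fold. Mrps6, at 1.68, Mrps35, at 1.62, Mrps10, at 1.41, Mrpl55, at 1.40, and Mrpl50, at 1.18, were the most positive. Against the WT Dox mean the same genes stood at 0.73, 0.80, 0.04, -0.16 and 0.79, so Mrpl55 had the opposite sign and Mrps10 was near 0. Mrpl51, at -1.08, Mrpl47, at -1.03, Mrps34, at -1.01, Mrps12, at -1.0, and Mrpl35, at -0.89, were the most negative. Against the WT Dox mean these stood at -0.12, -0.97, -0.50, -0.81 and 0.02, so Mrpl35 was near 0. The probes of Mrpl51 and Mrpl35 were dim, at 141 and 148 on the refed and 194 and 195 on the fasted array. A second Mrpl51 probe went the other way, as the second Mrps12 probe did. It read 141 on the refed array and 109 on the fasted array, where it missed the detection level. Mrpl9 shows how probes parted on the fasted array: its brighter probe gave -0.78 and its second probe 0.97 for refed minus fasted.

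**Figure D4:**
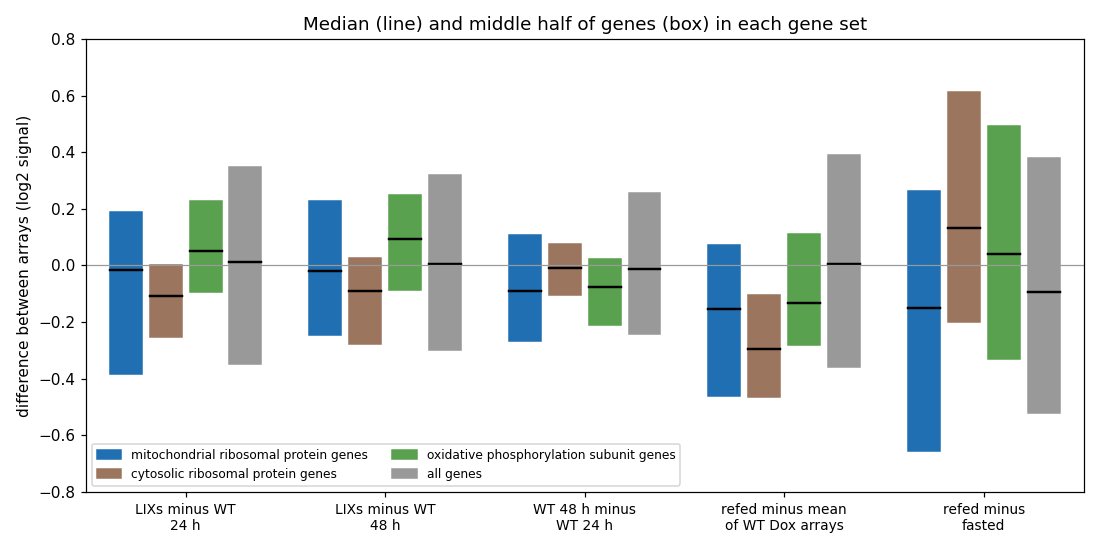
Difference in log2 signal between arrays for 4 gene sets in 5 comparisons, with a line at the median and a box from the 25th to the 75th percentile of genes. The member boxes lie around 0 in both LIXs minus WT comparisons, with medians of -0.02, and at -0.15 in both refed comparisons.

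Genes that serve the mitochondrial ribosome were read from lists. Over all genes of the fit 8.8% passed the averaged test, the share that belongs beside each count below. Of 4 ribosome proteins with other symbols, 0 passed the averaged test, and the largest differences were those of Ptcd3 at 0.73 (adjusted p = 0.0644) and Gadd45gip1 at -0.38 (adjusted p = 0.317). Of 13 translation factors 0 passed, with Oxa1l, the insertase of the inner membrane, at 0.61 (adjusted p = 0.0899) and the release factor family member Mtrf1 at -0.61 (adjusted p = 0.173). Of 21 assembly and rRNA modification genes 1 rose and 2 fell. Rbfa, a maturation factor of the small subunit, rose by 1.09 ± 0.22 (adjusted p = 0.0285). Its intensities were 948 and 873 on the LIXs arrays against 546 and 418 on the WT arrays, and a second probe gave 0.19 and 0.48 at 24 h and 48 h.

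Tfb1m, which methylates the small subunit rRNA, fell by 0.86 ± 0.22 (adjusted p = 0.0390), and Mpv17l2, a factor of ribosome assembly in human cells, also by 0.86 ± 0.22 (adjusted p = 0.0376). The Tfb1m probe was dim, at 176 and 184 on the LIXs arrays and 262 and 239 on the WT Dox arrays. On the fasted array it missed the detection level, at 119. Of 14 mitochondrial aminoacyl-tRNA synthetase genes Sars2 fell and 0 rose. Of 16 regulators of mitochondrial transcription and biogenesis Ppargc1b, a coactivator of mitochondrial biogenesis, rose by 0.98 ± 0.21 (adjusted p = 0.0296) and 0 fell. The medians of the 5 lists, in the order given, were 0.05, 0.05, -0.11, 0.12 and -0.04.

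Promoter windows from 250 bases before to 50 bases after the RefSeq start were searched on both strands for 6 short motifs. The ETS core CCGGAAG was present for 25 of 64 members (39.1%), against 19.0% of detected genes and 12.9% of protein-coding genes. The YY1 core AAGATGGCG was present for 12.5%, against 3.45% and 2.14%, and the NRF1 core GCGCATGCG for 9.38%, against 3.8% and 2.61%. The E-box CACGTG was found for 7.81% of members and 11.9% of detected genes. The XBP1s response element core TGACGTGG was found for 0 of 64, against 0.946% of detected genes, and CCACG, the end of the ER stress response element that ATF6 and XBP1s contact, for 32 of 64 members, against 50.5% of detected genes. The response element core contains the reverse complement of CCACG.

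Members with the ETS core lay lower on the arrays labelled LIXs than members without it. Of 62 members in the fit with a window, 25 held the core, with 19 of them below and 6 above 0 and a median averaged difference of -0.25. The other 37 had 12 below and 25 above 0 and a median of 0.08. At 24 h the medians were -0.40 and 0.08, and at 48 h -0.17 and 0.07. Over all genes the same split gave -0.12 for 1352 genes with the core and 0.04 for 4914 without it. Of members below 0 at both times 18 of 26 held the core (69.2%), and of members above 0 at both times 4 of 21 (19.0%), compared with 28.7% and 13.5% of all genes. The other motifs were split in the same way. The median was -0.40 for 5 members with the NRF1 core and -0.13 for 5 with the E-box. For the 57 members without either motif it was 0.00 each time. For the YY1 core the medians were -0.06 with and -0.004 without a match, and for CCACG -0.06 and 0.05. No test was made, and a match is not evidence of binding. Gabpa and Gabpb1, named because they encode subunits of GABP, had averaged differences of -0.58 ± 0.26 (adjusted p = 0.169) and -0.78 ± 0.31 (adjusted p = 0.126), each from a probe detected on some of the arrays only. Each average came mostly from 1 time. Gabpa was at -0.07 at 24 h and -1.09 at 48 h, and Gabpb1 at -1.52 and -0.04. The LIXs array behind each larger difference read below the detection level, at 109 for Gabpa (48 h) and 122 for Gabpb1 (24 h). Nrf1, whose core was also searched for, was at -0.13 ± 0.23 (adjusted p = 0.750). Whether GABP has a part in the split by ETS core was not tested.

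The sequences of Mrpl58 and Mrpl17, the most negative large subunit members, and of Mrps6, the most positive member, are given as examples. These genes were picked by the same differences, and other members went the other way. Mrps22, at 0.41, held the ETS core and Mrpl10, at -0.40, did not. The printed sequences run from 250 bases before the start to base 30 of the transcript in GRCm38.p6, along the transcribed strand, at chr11:115403502-115403781 (plus strand), chr7:105811058-105811337 (minus strand) and chr16:92058086-92058365 (plus strand). Capitals mark any of the 6 motifs. Mrpl58 holds the ETS core 17 and 2 bases before its start, Mrpl17 holds it 237 bases before, the NRF1 core 11 bases before and CCACG 28 bases before, and Mrps6 holds only CCACG, 206 bases before.
Mrpl58: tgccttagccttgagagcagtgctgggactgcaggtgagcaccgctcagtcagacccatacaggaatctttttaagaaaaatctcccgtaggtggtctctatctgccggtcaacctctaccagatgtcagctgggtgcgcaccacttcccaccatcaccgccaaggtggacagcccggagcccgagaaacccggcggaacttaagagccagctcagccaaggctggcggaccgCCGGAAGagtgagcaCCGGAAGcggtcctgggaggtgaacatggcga
Mrpl17: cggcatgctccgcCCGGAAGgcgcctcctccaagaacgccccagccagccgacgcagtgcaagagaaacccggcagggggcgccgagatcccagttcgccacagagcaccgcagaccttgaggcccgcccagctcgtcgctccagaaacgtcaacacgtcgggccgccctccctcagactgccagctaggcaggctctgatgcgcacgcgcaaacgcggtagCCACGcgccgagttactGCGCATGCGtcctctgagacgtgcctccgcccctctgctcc
Mrps6: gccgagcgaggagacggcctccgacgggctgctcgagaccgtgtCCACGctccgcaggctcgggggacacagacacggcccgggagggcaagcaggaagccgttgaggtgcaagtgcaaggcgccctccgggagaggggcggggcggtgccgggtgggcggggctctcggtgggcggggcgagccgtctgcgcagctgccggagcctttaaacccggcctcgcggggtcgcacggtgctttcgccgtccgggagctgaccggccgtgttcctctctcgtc

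**Figure D5:**
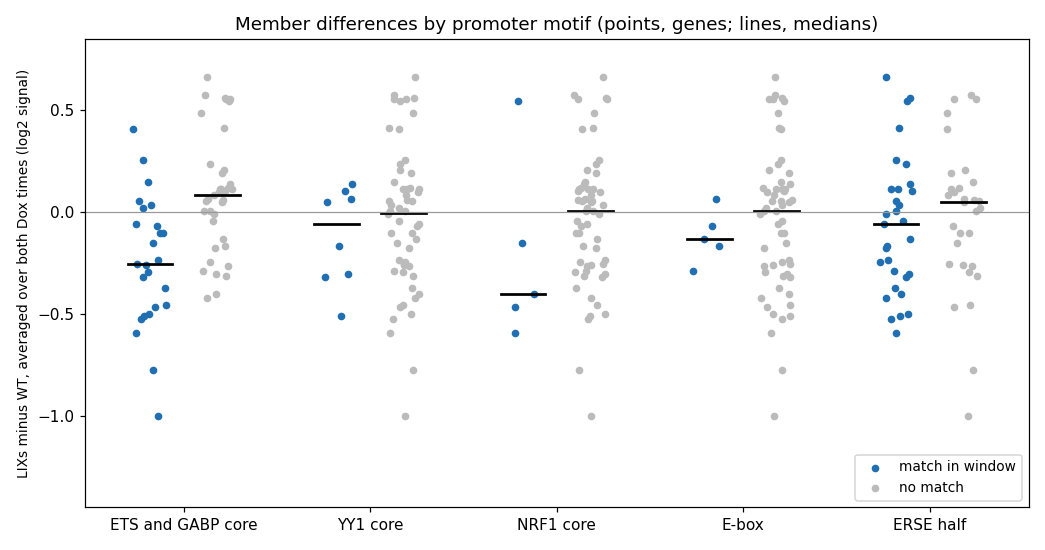
Averaged LIXs minus WT difference in log2 signal of the members in the fit with a promoter window, split by whether the window holds a motif (blue) or not (grey), with 1 point per gene, spread sideways at random, and a line at each median. For the ETS core the medians are -0.25 with and 0.08 without a match.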

How the data were processed

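Per the submitters' processing notes, GenomeStudio was used. The authors deposited 1 linear intensity per probe and array, and no source used here gives the normalization. A second table was not used, since none of its 12 columns names a sample. The sorted log2 values of all arrays lay within 0.0199 of each other. Intensities were corrected with limma's normexp (background 109, SD 7.67, both from the mode of all values), raised by an offset of 16, quantile-normalized and log2-transformed (R 4.3.3, limma 3.58.1). A gene was read from its brightest probe. Of 45281 probes, 34885 had 1 gene name.

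Genes detected on at least 2 Dox arrays entered lmFit and eBayes with genotype and time (1 residual and 9.69 prior degrees of freedom, prior SD 0.222). Benjamini-Hochberg adjustment ran over all genes. Each group has 1 array, so the number of arrays limits the precision.

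Members and lists were chosen with earlier results of these data known. Named genes were members past the test, those with the largest differences in each comparison, and a fixed set of 17 symbols. Alternatives covered background, offset, filter, probe rule, prior, time block, scaling, fold and single arrays. Promoter sequences are RefSeq's (GRCm38.p6).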

Additional observations from a re-analysis of the deposited data

Results flagged for a closer look

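For 2 members detected on all 6 arrays, the LIXs minus WT difference had opposite signs at both times on Dox, each larger than the prior SD of the fit. Mrpl44, a large subunit protein with an RNase III-like fold, was at -0.29 at 24 h and 0.40 at 48 h, a change of 0.69. Mrps30, a protein of the large subunit, was at 0.46 and -0.26, a change of -0.72. With 1 array per group the change of a difference was not tested.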

How the results depend on the processing

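The fit had time on Dox as a block, which pairs LIXs with WT at each time; no pairing by replicate number exists, since each group has 1 array. Over the alternatives the member median ran from -0.02 to 0.01 for the averaged difference, from -0.02 to 0.02 at 24 h, from -0.04 to 0.01 at 48 h and from -0.12 to -0.08 between the WT arrays. For refed against fasted it ran from -0.15 to 0.01, with the turn of sign given by the mean of detected probes. The count of members past the genotype test was 19 without background correction (8 higher and 11 lower), 4 with an offset of 50, 2 with detection on all 4 Dox arrays, 9 with a trended and robust prior, 0 with no filter on dim genes, 0 with the mean of detected probes and 0 with no time block. Leaving out single arrays, which also drops the time block, gave 0 to 1. Fits with fewer arrays or no time block hold fewer terms or samples; for the others the cause was not tested. Members past 1.5-fold without background correction numbered 4 at 24 h, 2 at 48 h and 1 between the WT arrays. With an offset of 50 the WT count was 2, and over members detected on all 6 arrays 3. At 2-fold the counts were 3 at 24 h, 0 at 48 h, 9 for refed against fasted and 0 between the WT arrays. Refed against the WT Dox mean gave 18. Of 307 recomputed differences of named members, 267 kept sign and side of the threshold. Signs reversed for Mrps7 with the mean of detected probes, at -0.0072. Leaving out single arrays, these members' ranges held both signs: Mrps30 -0.17 to 0.38, Mrps5 -0.021 to 0.25, Mrps18c -0.17 to 0.029, Mrpl44 -0.13 to 0.25 and Mrps7 -0.035 to 0.14.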
